A study of Mus musculus with 18 samples.

Results

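Malat1, Neat1 and AW112010 are long noncoding RNAs, and they were followed here through immune cells sorted from mouse tumours. The 3 genes were taken by symbol from 46983 annotated genes, in all 18 libraries. They were chosen by measured values of these same libraries, among them their levels and the change of Malat1 and AW112010 in CD8+ T cells, so their values in that sort are a description with no test. The tumours were subcutaneous MC38 tumours, in C57BL/6 females injected at 6 weeks of age with MC38, a colon carcinoma line of the mouse. One group of mice received D18 (25 µg per mouse, 1 dose per week) together with an antibody against PD-1. D18 is a code name, and its nature is not described further here. The other received the anti-PD-1 antibody without D18. All mice in both groups had 200 µg of the antibody 2 times per week for 2 weeks, from the time tumours averaged 100 mm3, and no tumour without PD-1 blockade was included. CD8+ T cells, T helper cells (the CD4 sort) and dendritic cells were sorted into lysis buffer, and each sort gave 3 libraries with D18 and 3 with anti-PD-1 alone. The labels pool the animals and do not tie a replicate to a mouse of its own, so p-values measure the spread between libraries, which may be technical.

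Malat1 is one of the most abundant nuclear RNAs of mammalian cells and collects at nuclear speckles, the compartments that store splicing factors. Neat1 is the scaffold on which paraspeckles, another class of nuclear body, assemble. It is made as a short polyadenylated form and as a long form whose end is not polyadenylated. AW112010 is a shorter transcript that is induced in mouse immune cells by interferon-gamma and by bacterial products, and in mouse macrophages it has been reported to encode a peptide that is translated from a start other than AUG.

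The 3 genes lie on the minus strand of chromosome 19 and are typed as lincRNA in GENCODE M21 on mm10. Malat1 (ENSMUSG00000092341.2 in the tables) lies at chr19:5795690-5802672 with 6983 exonic bases, and Neat1 (ENSMUSG00000092274.2) at chr19:5824708-5845478 with 20771 exonic bases, 22035 bases away. AW112010 (ENSMUSG00000075010.4) lies at chr19:11047612-11055808 with 804 exonic bases. The identifiers in the tables carry an older version number than those of the annotation used here, so the gene models that were counted may differ from these lengths. Within Malat1 and Neat1 the annotation places 5 small genes (Gm27694, Gm37376, Gm27533, Gm27505 and Gm28006), and all 5 had 0 reads over the 18 libraries. How reads in overlapping genes were counted is not given. The 0 reads therefore do not show that these genes were silent, and Malat1 and Neat1 may have lost reads there. Smart-Seq2 does not mark the strand, so reads of Malat1 and of Gm37376 on its other strand cannot be told apart.

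Smart-Seq2 starts reverse transcription from an oligo-dT primer, so the end of each transcript is shown first. Malat1 has no ordinary poly(A) tail in its mature form. The transcript is cut behind a stretch of A bases written in the genome, and U-rich motifs ahead of it fold back on that stretch into a triple helix. The line below gives that region of Malat1-201, at chr19:5795984-5796077 on the minus strand of mm10, with its run of 12 A bases, at positions 6674 to 6685 of the transcript, in capitals.
Malat1-201: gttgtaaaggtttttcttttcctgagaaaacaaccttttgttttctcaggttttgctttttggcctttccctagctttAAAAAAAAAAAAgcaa

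It was the only run of 8 or more A bases in Malat1-201, and no transcript of Neat1 or AW112010 had one. The longest run was 7 bases in Neat1-201, the long form, and 6 in AW112010-201. The next lines give the last 60 annotated bases of the main transcripts (GENCODE M21, mm10, minus strand), at chr19:5795690-5795749, chr19:5824708-5824767, chr19:5842307-5842366 and chr19:11047617-11047676 in that order, with the polyadenylation signal AATAAA in capitals.
Malat1-201: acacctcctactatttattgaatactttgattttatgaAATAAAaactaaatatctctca
Neat1-201: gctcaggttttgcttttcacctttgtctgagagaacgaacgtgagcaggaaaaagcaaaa
Neat1-202: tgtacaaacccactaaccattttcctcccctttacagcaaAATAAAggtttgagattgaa
AW112010-201: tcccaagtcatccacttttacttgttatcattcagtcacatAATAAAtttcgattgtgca

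The signal ended 16 bases before the annotated end of Malat1-201, 14 before that of Neat1-202, the short form, and 13 before that of AW112010-201. Its letters did not occur in the last 60 bases of Neat1-201. The read tables hold 1 value per gene, so reads of the short and long forms of Neat1 were not separated here.

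Promoters were read because the reads of Malat1 and AW112010 were both higher with D18 in most comparisons below. RefSeq (GRCm38.p6) gave 300 bases for both, 250 before and 50 after the start, at chr19:5802623-5802922 for Malat1 and chr19:11050517-11050816 for AW112010, minus strand, with the transcribed bases in capitals. Neat1 is named only.
Malat1: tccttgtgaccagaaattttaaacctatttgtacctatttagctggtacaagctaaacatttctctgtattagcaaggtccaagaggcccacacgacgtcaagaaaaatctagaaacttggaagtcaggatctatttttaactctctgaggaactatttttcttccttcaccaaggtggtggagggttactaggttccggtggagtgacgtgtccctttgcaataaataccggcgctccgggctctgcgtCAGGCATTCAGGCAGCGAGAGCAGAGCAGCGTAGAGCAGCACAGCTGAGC
AW112010: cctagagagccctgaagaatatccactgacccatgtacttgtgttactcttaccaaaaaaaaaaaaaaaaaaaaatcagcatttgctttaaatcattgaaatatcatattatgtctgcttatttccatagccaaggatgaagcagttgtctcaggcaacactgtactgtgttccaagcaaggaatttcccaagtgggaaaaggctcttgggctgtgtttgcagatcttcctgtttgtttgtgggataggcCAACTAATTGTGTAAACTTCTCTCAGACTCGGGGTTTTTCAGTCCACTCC

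Motifs were searched, 5 in all, on both strands with overlaps allowed. The TATA box (TATAAA), the CCAAT box, the gamma-activated site (TTCNNNGAA) and the interferon-stimulated response element had no match in either window, and they occur in 13.6%, 37.4%, 8.3% and 3.4% of the 32851 promoter windows in the same table. The half-site of the cyclic AMP response element (TGACG) matched 3 times in the Malat1 window and 0 times in that of AW112010, with a share of 20.8% over all windows. These are matches of letters in 300 bases and say nothing of binding.

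The libraries were shallow. Reads per library, recovered from the deposited values, ran between 11170 and 266392, and the library with the fewest was D18 replicate 2 of the dendritic cells. The share of reads from the 37 mitochondrial genes ran from 2.39% to 71.9%, so levels are given below as nuclear CPM, the reads of a gene per 1000000 reads of nuclear genes. In 6 libraries, anti-PD-1 replicates 1 and 2 of each sort, 0 reads were found for mt-Co2, mt-Atp6 and mt-Co3. The other 12 libraries are called the second library set here, although no label names a batch, and only 1 anti-PD-1 library per sort belongs to it. Some libraries lacked markers of their label or held those of other cells. The CD3 chain gene Cd3e had 23, 10 and 41 reads in CD4-sort libraries with D18 but 0, 1 and 45 with anti-PD-1 alone. In dendritic cell libraries it had 0, 0 and 69 reads with D18, and 0, 0 and 34 with anti-PD-1 alone. The library labelled D18 replicate 3 of the CD4 sort had 2 reads of Cd4 and 83 of Cd8a, which encode the receptors that define the T helper and the cytotoxic lineage, so its markers go against its label. The other libraries of that sort had 16 and 10 reads of Cd4 with D18, both with 0 of Cd8a, and 7, 1 and 20 reads of Cd4 with anti-PD-1 alone, with 1, 0 and 15 of Cd8a. Lyz2, a lysozyme of monocytes and macrophages, had at least 11 reads in every library.

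Malat1 was among the highest nuclear genes wherever it was measured. Its rank by reads among nuclear genes ran from 3 to 250 over the 18 libraries, with a median of 43. Its level had a median of 1876 nuclear CPM in CD8+ T cells, 2496 in the CD4 sort and 2776 in dendritic cells, with ranges of 530 to 7134, 729 to 7971 and 655 to 18096. These ranges overlapped almost throughout, so the order of the sorts did not stand out from the spread between their 6 libraries each, and the sorts were not tested against each other because the 3 tables were normalised separately.

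The sort medians of AW112010 had the opposite order. They were 1578 nuclear CPM in CD8+ T cells, 1460 in the CD4 sort and 651 in dendritic cells, with ranges of 792 to 3663, 693 to 2766 and 418 to 2477. The overlap was again wide. Neat1 was low in each sort, with a median of 90.5 nuclear CPM in CD8+ T cells, 88.4 in the CD4 sort and 126 in dendritic cells, and 1 to 27 reads per library.

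Per kilobase of exon the order of the genes was different from the order by reads. AW112010, the shortest of them, stood above Malat1 in 17 of 18 libraries on the per-kilobase scale, although Malat1 had more reads in 14 of 18. The exception was D18 replicate 2 of the dendritic cells, where the reads of Malat1 were 43.2 times those of AW112010. In the other 17 libraries this ratio of reads ran from 0.56 to 4.48. Neat1 was lowest per kilobase in 18 of 18 libraries, with a median of 4.55 nuclear CPM per kilobase, against 302 for Malat1 and 1639 for AW112010.

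**Figure D1:**
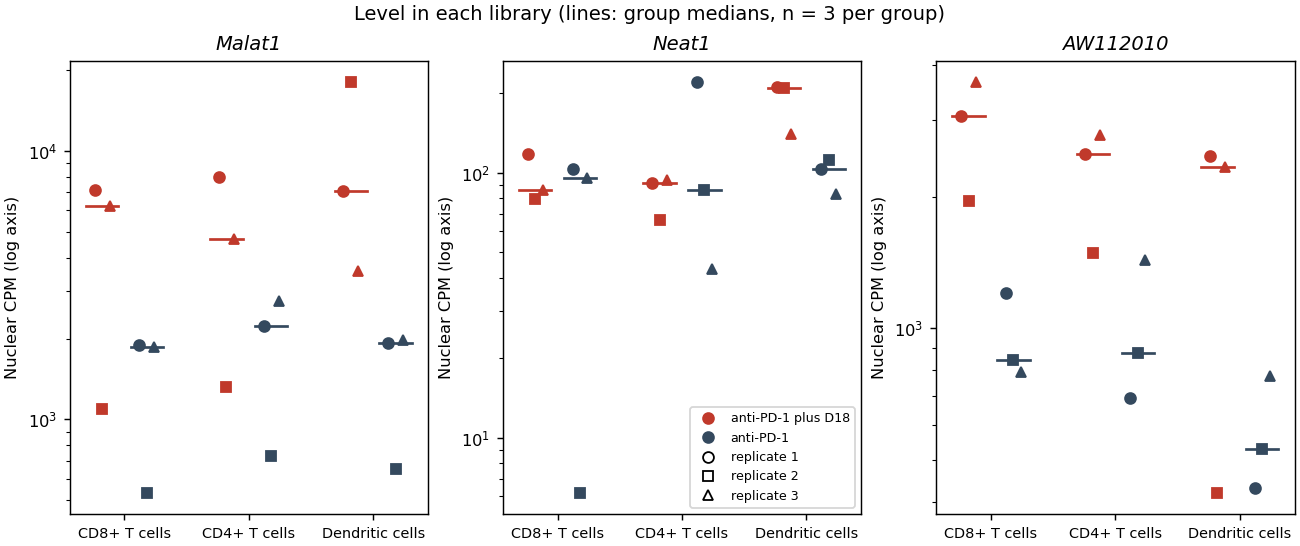
Nuclear CPM (log axis) of Malat1, Neat1 and AW112010 in each of the 18 libraries, with red for anti-PD-1 plus D18, dark blue for anti-PD-1, a marker shape per replicate and a line at each group median (3 libraries). The squares, replicate 2, are the lowest Malat1 value in 5 of 6 groups, and the dendritic cell library with D18 numbered 2 holds the highest Malat1 level, 18096.

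These genes took a large part of all reads from annotated lncRNA. Of the reads in the GENCODE classes for lincRNA, antisense and related transcripts, the 3 together held 28.8% to 57.2% in a library. Malat1 ranked first and AW112010 second in the mean normalised reads of that class in each of the 3 sorts, ahead of Gm26917. Neat1 ranked 11 in CD8+ T cells, 8 in the CD4 sort and 7 in dendritic cells.

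In CD8+ T cells both abundant genes had higher levels in the D18 libraries, on average. Markers of T cells and of macrophages also differed between these libraries, and their values are given below with those of the dendritic cells. Malat1 had 7134, 1096 and 6248 nuclear CPM in D18 libraries 1 to 3, against 1892, 530 and 1860 with anti-PD-1 alone. Replicates 1 and 3 with D18 were well above every anti-PD-1 library, while D18 replicate 2 lay below 2 of them, so the groups overlapped. Within each replicate number the D18 library was the higher one. On the log2 scale of normalised reads plus 1, the change, given throughout as D18 minus anti-PD-1, was 1.55 ± 0.88 (SE, n = 3 each). It was 2.47 without D18 replicate 2 and 0.92 without anti-PD-1 replicate 2.

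AW112010 had 3049, 1953 and 3663 nuclear CPM in CD8+ T cells with D18, against 1203, 845 and 792 with anti-PD-1 alone. The lowest D18 library was above the highest anti-PD-1 library, and the log2 change was 1.56 ± 0.45. Groups of this kind, apart and higher with D18, made up 6.88% of the 1569 genes measured well enough in that sort, and AW112010 was 1 of the 2 members that reached the minimum of a mean of 10 normalised reads. Nothing is read from that count, since this comparison helped to choose the genes. With the replicate number as a block, limma called 20 of the 1569 genes at an adjusted p under 0.05, 1.27%. Malat1 (1.55 ± 0.28) and AW112010 (1.56 ± 0.28) were among them, as they were when they were chosen, so these calls are no test of them. The labels do not say what libraries of 1 number share. Numbers 1 and 2 set a D18 library of the second library set against an anti-PD-1 library outside it.

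Neat1 had 6, 20 and 5 reads in CD8+ T cells with D18 and 7, 1 and 10 reads with anti-PD-1 alone. These are 117, 79.4 and 85.6 nuclear CPM with D18, against 103, 6.17 and 95.4. The 2 groups lay in the same range apart from anti-PD-1 replicate 2, which had 1 read. Neat1 missed the minimum mean of 10 normalised reads in all 3 sorts, so it was tested in none, and its log2 change of 0.80 ± 0.73 became −0.12 without that 1 library.

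In the CD4 sort neither Malat1 nor AW112010 passed the test. The contrasts of this sort and of dendritic cells are not known to have served to choose the genes. The choice was made with earlier results of these data known, so the p-values are not those of an independent test. Malat1 had 7971, 1322 and 4682 nuclear CPM with D18, against 2234, 729 and 2758 with anti-PD-1 alone. Replicates 1 and 3 with D18 were the highest of the 6 and replicate 2 was below 2 of the anti-PD-1 libraries. The log2 change was 1.17 ± 0.81, with a 95% interval of −0.66 to 2.998 and an adjusted p of 0.610 (limma). It was 1.94 without D18 replicate 2, 0.59 without D18 replicate 1 and 0.52 without anti-PD-1 replicate 2, with adjusted p of 0.496, 0.935 and 0.927 (limma). Without the library labelled D18 replicate 3 it was 0.97 (adjusted p = 0.719, limma).

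AW112010 had 2505, 1487 and 2766 nuclear CPM in the CD4 sort with D18, against 693, 879 and 1433 with anti-PD-1 alone. The groups did not overlap on this scale, but they did in normalised reads, the scale of the test, where D18 replicate 2 had 84.4 and anti-PD-1 replicate 3 had 86.4. The log2 change was 1.20 ± 0.51, with a 95% interval of 0.05 to 2.34, an unadjusted p of 0.0423 and an adjusted p of 0.453 in limma's fit of 966 genes. Without the library labelled D18 replicate 3 it was 1.01 (adjusted p = 0.551, limma). In the fit of all libraries 0 genes (0%) passed an adjusted p under 0.05, with 100 genes at an unadjusted p under 0.05, of which those higher with D18 were 3.73% of the genes and included AW112010, 1 of 2 members. In normalised reads 0 of the 2 tested members were apart and higher with D18, against 5.28% of all tested genes.

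Markers of T cells and of dendritic cells differed widely between libraries of that sort, and the treatment groups overlapped in both sums. Reads of the 15 T cell markers summed to 6857, 6548 and 4050 CPM, over all reads, in CD4-sort libraries with D18, against 19.8, 132 and 5710 with anti-PD-1 alone, and 3 and 10 of the 15 had a read in anti-PD-1 replicates 1 and 2. Those of the 18 dendritic cell markers summed to 773, 2857 and 8179 CPM with D18, against 8419, 15179 and 6030 CPM with anti-PD-1 alone. All 10 tested T cell markers had a positive change (median 2.84), with 0 called by limma. The 4 tested dendritic cell markers all had a negative one (median −2.38), again with 0 called. Those 4 were Cd74, H2-Aa, H2-Ab1 and H2-Eb1, genes of MHC class II presentation, and no other gene of the 18 was tested. The part of the marker differences in the values of Malat1 and AW112010 was not tested. In bulk RNA, fewer cells of a type and less RNA per cell cannot be told apart. Anti-PD-1 replicate 3, the 1 library of its group with T cell markers at the level of the D18 libraries, held 2758 nuclear CPM of Malat1 and 1433 nuclear CPM of AW112010. That was the highest Malat1 and AW112010 value of the anti-PD-1 group in this sort. The same library is the only one of its group in the second library set. Its mitochondrial share, 21.8%, was also the lowest of the group, against 40.1% and 67.7%. Markers, library set and mitochondrial share therefore cannot be told apart here.

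Neat1 had 4, 2 and 10 reads in the CD4 sort with D18 and 20, 4 and 4 with anti-PD-1 alone. The groups overlapped in full, and the log2 change of −0.17 ± 0.86 had a 95% interval of −1.85 to 1.52.

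In dendritic cells the level of Malat1 was higher in each D18 library than in any anti-PD-1 library. It had 7067, 18096 and 3574 nuclear CPM with D18, against 1929, 655 and 1978 with anti-PD-1 alone. The highest value came from the library with the fewest reads, where 173 of 11170 reads were of Malat1. That library also stood apart in neutrophil markers, at 1522 CPM on 17 reads against at most 52.7 CPM in the other 17 libraries, and in red cell markers, at 1164 CPM on 13 reads against at most 783 CPM. Their part in its Malat1 level was not tested. The log2 change was 2.39 ± 0.83, with a 95% interval of 0.50 to 4.29 and an unadjusted p of 0.0189, and it did not pass after adjustment over 886 genes (adjusted p = 0.551, limma). Without that shallow library it was 1.96, with an adjusted p of 0.370 (limma). Malat1 ranked 20 among those genes by its change and 19 by its p.

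Groups that were apart and higher with D18 made up 4.18% of the genes tested in dendritic cells, and Malat1 was 1 of the 2 tested members. No gene passed in that fit (0%), with 61 genes at an unadjusted p under 0.05. Those higher with D18 were 2.14% of the genes and included Malat1. With limma-voom and quality weights on the recovered reads, 71 genes passed (8.01%) and Malat1 was among them at 3.22 ± 0.49 and an adjusted p of 2.61e-05. Over all alternatives the adjusted p ran from that value to 0.998. The median change of all genes in dendritic cells was −0.65, and the Malat1 change stood 3.05 above it. Under quantile normalisation, which brought that median to −0.07, the change of Malat1 was 2.74.

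AW112010 had 2477, 418 and 2336 nuclear CPM in dendritic cells with D18, against 431, 527 and 775 with anti-PD-1 alone. Replicates 1 and 3 with D18 were the highest of the 6 libraries and replicate 2 was the lowest, with 4 reads of AW112010, so the groups overlapped. The log2 change was 1.16 ± 0.93, with a 95% interval of −0.97 to 3.28 and an adjusted p of 0.604 (limma). Without D18 replicate 2 it was 2.16 with an adjusted p of 0.370, without D18 replicate 1 it was 0.61, and without D18 replicate 3 it was 0.70.

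Neat1 had 27, 2 and 19 reads in dendritic cells with D18 and 6, 7 and 11 with anti-PD-1 alone. These were 210, 209 and 139 nuclear CPM with D18, against 103, 112 and 82.7 nuclear CPM. The groups did not overlap, on counts too low for the test, and the log2 change was 0.71 ± 1.05.

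Markers of other cells differed between the dendritic cell libraries as well. The T cell markers summed to 126, 627 and 5103 CPM with D18, against 0, 0 and 2497 with anti-PD-1 alone, with 15 of 15 detected in both libraries numbered 3. The 20 monocyte and macrophage markers summed to 32679, 14235 and 29457 CPM with D18, against 54103, 22190 and 41345. In CD8+ T cells the same 20 summed to 5374, 6551 and 26528 with D18, against 30354, 25375 and 42317, and in the CD4 sort to 8436, 27764 and 27641, against 49832, 27044 and 23684. T cell markers summed to 8491, 11089 and 3411 CPM in CD8+ T cell libraries with D18, against 7608, 9151 and 2279. In that sort the monocyte and macrophage sum was above the T cell sum in every anti-PD-1 library and in D18 replicate 3. It was below the T cell sum in D18 replicates 1 and 2. In the CD4 sort the monocyte and macrophage sum was above the T cell sum in every library. In dendritic cells the 18 dendritic cell markers summed to 9515, 4387 and 6935 CPM with D18, against 12525, 12671 and 7379. These sums were below the monocyte and macrophage sum in every library of that sort. The lists differ in length. The part of all these markers in the values of the 3 lncRNAs was not tested. Without both libraries numbered 3, the Malat1 change was 1.47 in CD8+ T cells, 1.35 in the CD4 sort and 3.14 in dendritic cells, and that of AW112010 was 1.26, 1.31 and 0.92.

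**Figure D2:**
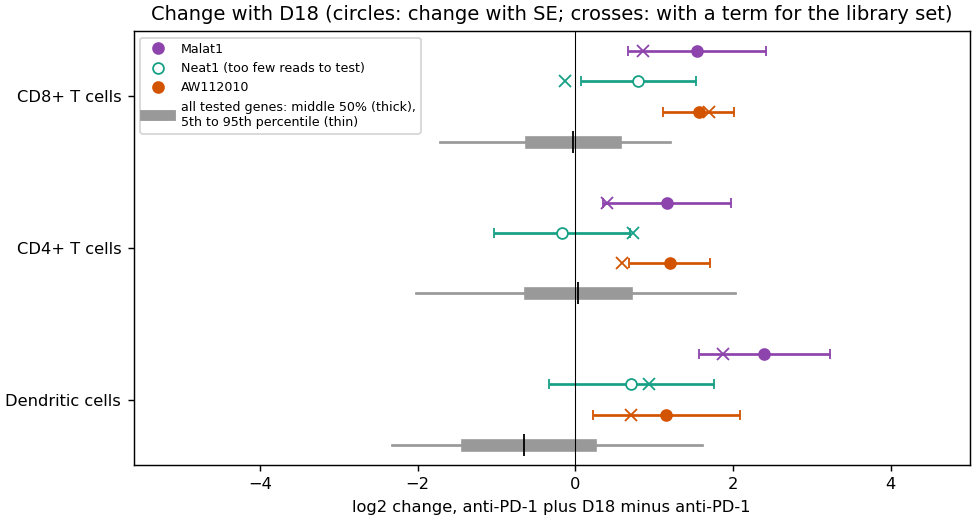
Change with D18 (log2 of normalised reads plus 1, D18 minus anti-PD-1) in the 3 sorts, with circles and bars for the change and its SE (3 libraries per group), crosses for the change with the library set as a term, and grey bars for all tested genes. The open circles of Neat1 mark a gene with too few reads to test, and the bar of all genes in dendritic cells is centred at −0.65.

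Malat1 and AW112010 had positive changes in all 3 sorts. Whether the change differed between sorts was tested for the CD4 sort and dendritic cells, whose contrasts are not known to have served to choose the genes. For Malat1 the CD4-sort change minus the dendritic cell change was −1.23 ± 1.21, with a 95% interval of −3.84 to 1.38 and an adjusted p of 0.850 (limma). For AW112010 it was 0.04 ± 1.11, with an interval of −2.34 to 2.43 and an adjusted p of 0.991. None of the 744 genes passed in that fit (0%). The intervals hold differences of several fold either way.

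With the library set as a term in the model, the change rests on the 1 anti-PD-1 library per sort that belongs to the second library set. For Malat1 it was then 0.86 ± 1.28 in CD8+ T cells, 0.41 ± 1.13 in the CD4 sort and 1.87 ± 1.37 in dendritic cells. For AW112010 it was 1.70 ± 0.70, 0.59 ± 0.71 and 0.71 ± 1.47 in the same order. All 6 values stayed positive, and in the CD4 sort and in dendritic cells each was lower than without the term. For Neat1 the values were −0.13, 0.73 and 0.94. No D18 library belongs to the first set, so for anti-PD-1 replicates 1 and 2 the set and the treatment cannot be told apart.

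The mitochondrial share of each library was set beside the levels, and its part in them was not tested. It was 8.34%, 5.43% and 25.1% in CD8+ T cell libraries with D18, against 12.8%, 14.5% and 26.9% with anti-PD-1 alone. It was 26.2%, 2.85% and 22.1% in CD4-sort libraries with D18, against 40.1%, 67.7% and 21.8%. In dendritic cells it was 32.5%, 14.4% and 19.3% with D18, against 2.39%, 71.9% and 22.3%. In CD8+ T cells the share was lower in the D18 library of each replicate number, and Malat1 and AW112010 were higher in it. The lowest Malat1 level of each sort came from anti-PD-1 replicate 2, whose mitochondrial share was the highest of the sort in the CD4 sort and in dendritic cells but the third in CD8+ T cells.

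The libraries with the lowest shares were spread over the order of Malat1. D18 replicate 2 had the lowest share in CD8+ T cells and in the CD4 sort and ranked 5 of 6 for Malat1 in both. In dendritic cells the lowest share, 2.39%, belonged to anti-PD-1 replicate 1, which also ranked 5. The second-lowest share belonged to the library with the highest Malat1 level in CD8+ T cells (D18 replicate 1, 8.34%) and in dendritic cells (D18 replicate 2, 14.4%). AW112010 ranked 3 of 6 in both of the T cell libraries with the lowest share.

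The libraries numbered 3 gave the closest match in mitochondrial share between the treatments. In CD8+ T cells, at 25.1% with D18 and 26.9% with anti-PD-1 alone, Malat1 had 6248 against 1860 and AW112010 3663 against 792 nuclear CPM. In the CD4 sort, where the D18 library is the one with more Cd8a than Cd4 reads, the shares were 22.1% and 21.8%, and Malat1 had 4682 against 2758 and AW112010 2766 against 1433. In dendritic cells, at 19.3% and 22.3%, Malat1 had 3574 against 1978 and AW112010 2336 against 775. Both genes were higher in the D18 library of each of these 3 pairs, which also share a library set. The pairs were not matched in cell markers. Monocyte and macrophage markers summed to 26528 against 42317 CPM in CD8+ T cells. They summed to 27641 against 23684 in the CD4 sort and 29457 against 41345 in dendritic cells. T cell markers in dendritic cells summed to 5103 against 2497 CPM. The CD8+ T cell pair is among the values that helped to choose the genes. The part of the marker differences was not tested. Each pair is 1 library against 1, so the comparison has no replicate check.

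With the mitochondrial share as a covariate, the change of Malat1 was 1.95 in CD8+ T cells, 0.88 in the CD4 sort and 2.17 in dendritic cells, and that of AW112010 was 1.67, 1.10 and 1.27. In the CD4 sort and in dendritic cells the adjusted p of either gene was at least 0.734 in that fit (limma). Scaling each library by its nuclear reads in place of the deposited size factors gave 1.56, 1.14 and 2.49 for Malat1 and 1.58, 1.17 and 1.24 for AW112010. All of these stayed on the positive side.

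**Figure D3:**
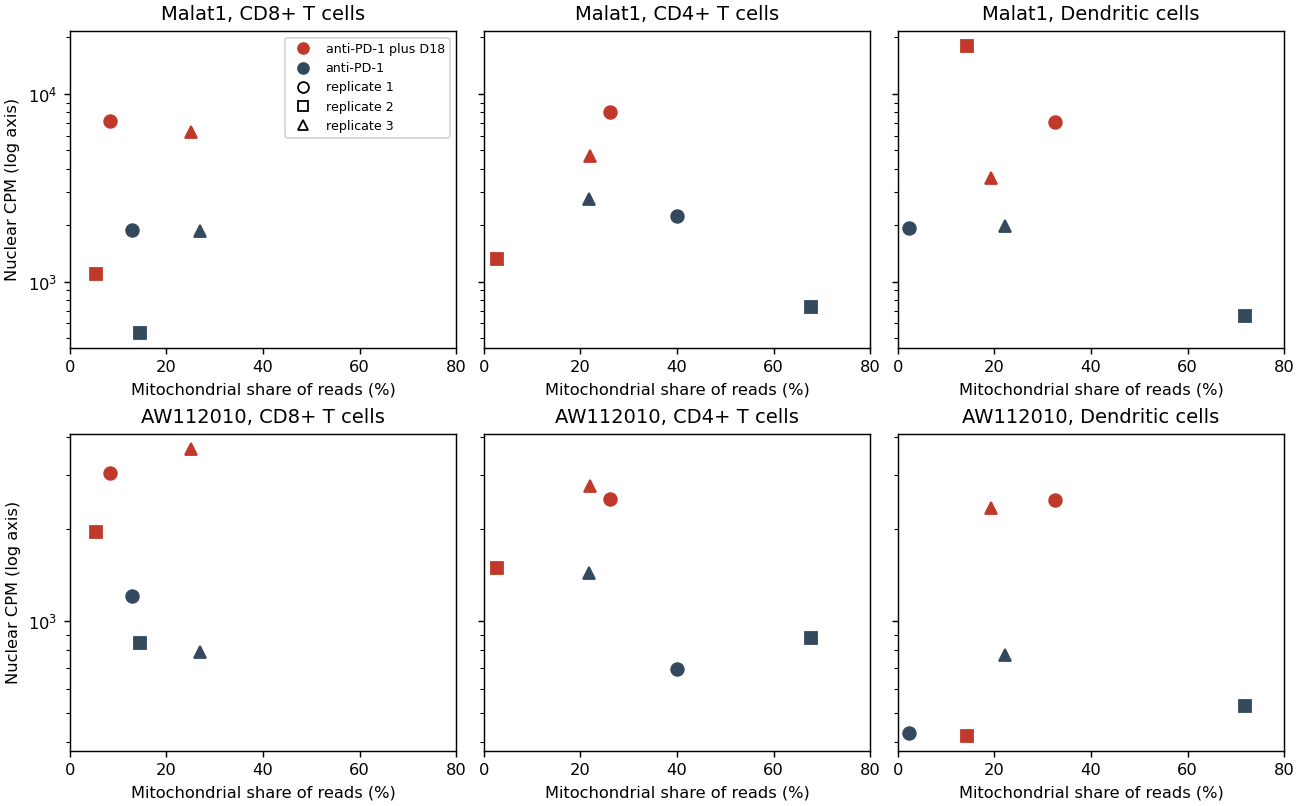
Level of Malat1 (top) and AW112010 (bottom) in nuclear CPM (log axis) against the mitochondrial share of the library's reads in percent, per sort, with red for anti-PD-1 plus D18, dark blue for anti-PD-1 and a marker shape per replicate. At shares of 19.3% to 26.9% the D18 library numbered 3 (red triangle) lies above the anti-PD-1 library numbered 3 in all 6 panels.

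The genes whose level was most like that of each lncRNA were found by Pearson's r over the 18 libraries, among 714 genes with a mean of at least 10 normalised reads in each sort. The values were log2 of nuclear CPM plus 10. The points share depth and treatment within a library, so r is a description with no test. For Malat1 the 4 most alike were Lars2 (r = 0.93), which encodes the mitochondrial leucyl-tRNA synthetase, Gm23935 (0.84), Gm9843 (0.83) and Crip1 (0.83), which encodes a small LIM-domain protein. The median r of all 714 genes with Malat1 was −0.28. Gm23935 is annotated as a miRNA and Gm9843 as a processed pseudogene, so their reads may be shared with other copies.

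Lars2 was close to Malat1 in the order of its levels. It had 5394, 1314 and 5940 nuclear CPM in CD8+ T cells with D18, against 909, 154 and 734 with anti-PD-1 alone. In dendritic cells it had 2773, 9833 and 3120 with D18, against 792, 208 and 782. Replicate 2 was the lowest in both groups of the CD8+ T cells, and D18 replicate 2 was the highest of the dendritic cells, as for Malat1. Lars2 was picked for this likeness, so its changes with D18 are a description. Its groups were apart in CD8+ T cells (log2 change 2.84 ± 0.86) and in dendritic cells (2.98 ± 0.78) and overlapped in the CD4 sort (2.04 ± 0.94). Without D18 replicate 2 of the dendritic cells its r with Malat1 was 0.92.

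For AW112010 the 4 most alike were Myl6, a myosin light chain (r = 0.83), Il7r, the interleukin-7 receptor chain of lymphocytes (0.81), S100a10, a partner of annexin A2 (0.79), and Nfkbia, the inhibitor IκBα (0.77), with a median r of 0.21 over all 714 genes. None of them was among the 4 of Malat1. Myl6 had 1681, 655 and 822 nuclear CPM in CD8+ T cells with D18, against 513, 401 and 553 with anti-PD-1 alone. The log2 changes in that sort were 0.97 for Myl6, 1.44 for Il7r, 1.41 for S100a10 and 0.44 for Nfkbia. Since the 4 were picked for following AW112010 over these libraries, nothing is read from their changes.

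For Neat1 the most alike were Grina (r = 0.75), Lrpap1 (0.68), Atox1 (0.66) and Sem1 (0.65), on 1 to 27 reads of Neat1 per library. Malat1 and Neat1, neighbours in the genome, had an r of 0.55, AW112010 and Malat1 0.38, and AW112010 and Neat1 −0.02. Without D18 replicate 2 of the dendritic cells, r between AW112010 and Malat1 was 0.73.

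**Figure D4:**
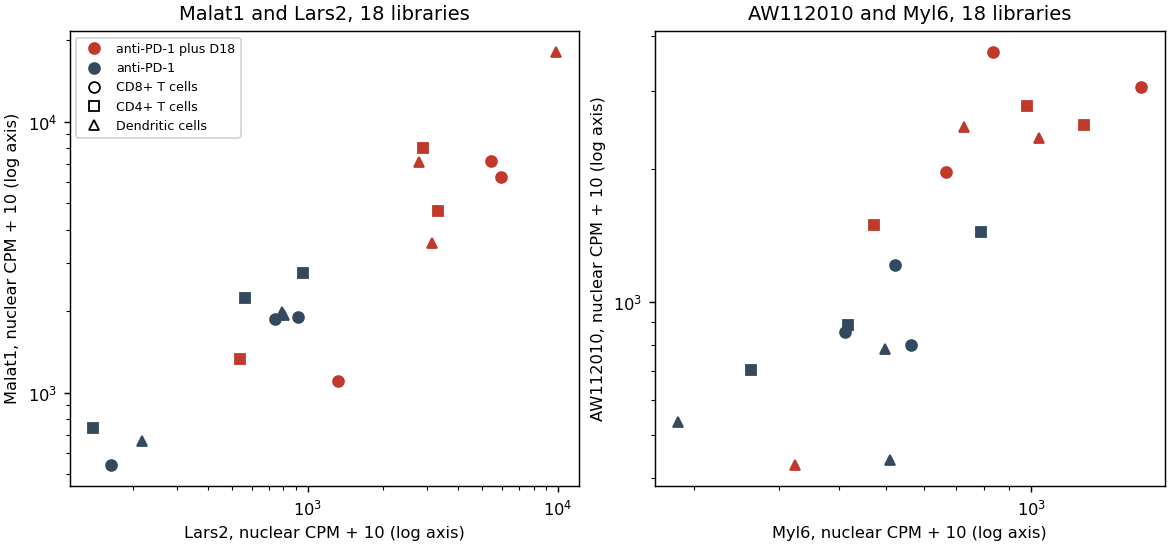
Levels of Malat1 and Lars2 (left) and of AW112010 and Myl6 (right) in the 18 libraries, as nuclear CPM plus 10 on log axes, with red for anti-PD-1 plus D18, dark blue for anti-PD-1 and a marker shape per sort. Malat1 and Lars2 lie along a line with r = 0.93, with the dendritic cell library of 18096 nuclear CPM of Malat1 at its upper end.

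Other lncRNAs were mostly too low to test. Of 63 lncRNAs on a list of known ones, 56 were found in the tables, and 3 were tested in CD8+ T cells, 2 in the CD4 sort and 1 in dendritic cells, with 0 called by limma. Xist, the RNA that coats the inactive X chromosome, had log2 changes of 0.65 ± 0.43, 0.55 ± 0.56 and 0.53 ± 0.58 in the 3 sorts. Gas5, a host of small nucleolar RNAs, had 0.01 ± 0.61 in CD8+ T cells and −0.33 ± 0.57 in the CD4 sort. Zfas1 had −0.17 ± 0.77 in CD8+ T cells. Among annotated lincRNA, antisense and related genes other than the 3 members, 7, 4 and 4 were tested in the 3 sorts, and none passed. The changes of all of them were positive, against 48.3%, 51.6% and 30.9% of all tested genes. Gas5 and Zfas1, each with a negative change above, are outside this class, whose bounds were set after values were seen. The class medians were 0.65, 0.75 and 1.82, against −0.03, 0.03 and −0.65 over all tested genes. Gm26917, Gm10076 and Xist were tested in each sort, so the sorts largely repeat the same genes. In dendritic cells Gm26870 had 12, 11 and 6 reads with D18 and 4, 0 and 0 with anti-PD-1 alone. It reached the minimum mean through its D18 libraries, and its change of 2.74 was the highest of the class there. The signs and medians of the class are therefore a description with no test.

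Gm26917 came next to AW112010 in level within that class. Its reads in dendritic cells were 240, 16 and 268 with D18 and 33, 7 and 134 with anti-PD-1 alone, and in normalised reads its groups were apart with a log2 change of 2.03 ± 0.87 (adjusted p = 0.551, limma). The reads of all lncRNA other than the 3 made up 1.11%, 3.48% and 0.82% of nuclear reads in dendritic cells with D18, against 0.39%, 0.22% and 0.50% with anti-PD-1 alone.

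The protein partners of the nuclear bodies showed no call in any sort (limma, all genes). Of 27 paraspeckle proteins, 7, 3 and 2 were tested in CD8+ T cells, the CD4 sort and dendritic cells, with median log2 changes of −0.40, −0.36 and −2.05. Hnrnpk, an RNA-binding protein of paraspeckles, had −0.74 ± 0.53, −0.36 ± 0.51 and −1.82 ± 0.70, and Rbm3, a cold-inducible RNA-binding protein, had −1.23 ± 0.45, −0.35 ± 0.55 and −2.29 ± 1.07. In CD8+ T cells 2 of the 7 had a positive change, and in the other sorts none of the tested ones did. Of 41 nuclear speckle proteins, 15, 14 and 8 were tested, with medians of 0.12, 0.34 and −0.42. Srrm1, a splicing coactivator of the speckles, had 0.06 ± 0.41, −0.74 ± 0.58 and 0.07 ± 0.79, and Srsf3, a splicing factor, had 0.24 ± 0.37, 0.60 ± 0.49 and −0.69 ± 0.67.

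Genes induced by interferon-gamma, the cytokine that also induces AW112010 in mouse cells, had a median change above that of all genes in each sort, and 0 of them were called. Of 29 such genes 17, 13 and 12 were tested, of which 13, 12 and 7 had a positive change, and the medians were 0.57, 1.06 and 0.12. Over all tested genes, 48.3%, 51.6% and 30.9% had a positive change. Psmb8, an immunoproteasome subunit, had 0.08 ± 0.42, 0.55 ± 0.48 and 0.34 ± 0.64. Irf8, a transcription factor of myeloid cells, had −0.62 ± 0.50, 0.48 ± 0.77 and 0.42 ± 0.83. Serpina3g, an intracellular serine protease inhibitor, had −1.57 ± 0.58, 1.72 ± 1.21 and −0.68 ± 1.57. AW112010 was 1.56, 1.20 and 1.16 in the same fits. Nothing is read from its place beside the list, since its change in CD8+ T cells helped to choose it. A part of interferon-gamma in its change was not tested.

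Genes next to the lncRNAs on chromosome 19 had changes of both signs in the T cell sorts. Near Malat1 and Neat1, 2 of 16 neighbours were tested, both in CD8+ T cells, with 1.14 ± 0.68 for Sipa1, a GTPase activator, and −0.22 ± 0.70 for Rela, a subunit of NF-κB. Near AW112010 lie the Ms4a genes, which encode membrane proteins of leukocytes, and of 29 neighbours 7, 8 and 6 were tested, with medians of 0.10, −0.66 and −1.83 and 0 called. Ms4a4b, a T cell gene, had 0.48 ± 0.62, 4.09 ± 1.08 and −0.79 ± 2.08. Ms4a7, a macrophage gene, had −3.13 ± 1.28, −2.62 ± 1.10 and −1.40 ± 0.85.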

How the data were processed

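The deposited tables, 1 per sort, hold log2 values that the authors made from reads scaled by library size factors; which transform was used is not given in the labels. Per the submitters' processing notes, STAR 2.4.0, HTSeq 0.6.1 and DESeq2 were used with mm10. Undoing a variance-stabilising transform gave whole reads for 100% of values (tolerance 0.001); a count of 0 allows up to 3 reads at 95% confidence, for counting error only, since no molecular identifiers were used. Symbols were found for 98.9% of gene IDs.

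Changes were fitted with limma 3.58.1 in R 4.3.3 (trend, robust) on log2(normalised reads + 1), for genes that averaged 10 or more in a sort, with Benjamini-Hochberg adjustment over all of them, and the fit was tested on simulated data. A negative-binomial count test was not run, because the deposited unit is log2. Named are the 3 members, up to 4 members of each list by level, and the 4 genes most like each member. Cd3e, Cd8a, Cd4, H2-Aa and Lyz2 served as checks of the labels. Members, lists, tests and alternatives were chosen with earlier results of these data known. GENCODE types called processed transcript were left out of the lncRNA class, since they include protein-coding genes, a choice made after values were seen. In same-numbered CD8+ T cell libraries, deviations from the group means correlated at 0.36, 0.51 and 0.56 for numbers 1, 2 and 3. Alternatives were other scalings, filters, pseudocounts and tests, a replicate block, covariates, and each library left out. Figures were made with Python 3.11.15 and matplotlib 3.10.9.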

Additional observations from a re-analysis of the deposited data

How the results depend on the processing

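The changes of Malat1 and AW112010 with D18 were positive in all 3 sorts under every alternative run, at 0.86 to 2.47 and 1.26 to 1.88 in CD8+ T cells, 0.41 to 1.94 and 0.59 to 2.11 in the CD4 sort, and 1.87 to 3.22 and 0.61 to 2.16 in dendritic cells. Leaving out 1 library at a time gave 0.92 to 2.47 and 1.33 to 1.88 in CD8+ T cells, 0.52 to 1.94 and 1.01 to 1.51 in the CD4 sort, and 1.91 to 2.88 and 0.61 to 2.16 in dendritic cells. The Malat1 change was lowest without anti-PD-1 replicate 2 in each sort. Malat1 in dendritic cells passed with limma-voom (3.22) and under no other alternative. Neat1 ran from −0.12 to 1.26 in CD8+ T cells, −0.62 to 0.41 in the CD4 sort and 0.51 to 0.83 in dendritic cells with 1 library left out, was 0.73 in the CD4 sort with the library-set term, and was 0.36 in dendritic cells at a pseudocount of 10. The CD4-sort change of AW112010 minus that in dendritic cells was −0.072 with nuclear library totals and −0.96 to 0.59 with 1 library left out; that of Malat1 was −1.87 to −0.45. The cause was not tested.

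Where limma called 0 genes, CD8+ T cells gave 22 with no filter, 20 with the replicate block, 1 on the deposited log2 values, and 0 to 2 with 1 library left out (2 without D18 replicate 3). The CD4 sort gave 29 with no filter, 34 without both libraries numbered 3, and 0 to 19 with 1 library left out (19 without anti-PD-1 replicate 3). Dendritic cells gave 1 with quantile normalisation, 71 with limma-voom, and 0 to 0 with 1 library left out. Same-numbered libraries correlated at −0.14, 0.15 and −0.20 in the CD4 sort and 0.03, −0.09 and 0.14 in dendritic cells. These low values do not settle what the numbers share there, and the replicate block called 0 genes in both sorts. At a minimum mean of 100, Neat1 was in no fit and AW112010 only in that of CD8+ T cells. The r of AW112010 and Malat1 without 1 library was chosen after seeing the data. Low depth limits Neat1 most, at 1 to 27 reads per library.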
